A study of Homo sapiens with 2 samples.

Results

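The genes described here are the cyclins, the cyclin-dependent kinases (CDKs), their inhibitors, the pocket proteins and the E2F factors, the parts of the switch that commits a cell to divide. They were taken from a list of 54 gene symbols by reading every probe set that GEO's annotation of the array assigns to 1 of them alone. Of the 54 genes, 53 had such a probe set, and 51 were measured, out of 12541 measured genes in all. They were read by 140 of 54613 human probe sets, and 115 of the 140 were measured. Measured means above a floor on at least 1 array, the floor being 72.4, the median signal over both arrays of every human probe set. CDKN2C was not analysed here: no probe set carries its name in the annotation used. CCNA1 and CDKN2B had probe sets, but each lay below the floor on both arrays.

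The study compared 2 cultures of K562, a human chronic myeloid leukaemia line that carries BCR-ABL and has erythroid features. One had received the retroviral vector pMSCV without an insert and the other a retrovirus for PML4, an isoform of the PML nuclear body scaffold, and both had 3 weeks of G418. Growth was in 1640 medium with 10% FBS at 37 °C. Whether the cultures were clones or pools is not given in the sources used here. Each culture gave 1 array of total RNA, so no value has a replicate error, no test was possible, and every difference is one between these 2 arrays.

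D-type cyclins activate CDK4 and CDK6 early in G1, and E-type and A-type cyclins activate CDK2 later. These kinases phosphorylate RB1 and its relatives, which releases E2F factors to switch on genes for DNA synthesis. INK4 inhibitors (the CDKN2 genes) bind CDK4 and CDK6, and KIP inhibitors (among the listed genes CDKN1B and CDKN1C) bind cyclin-CDK complexes, mainly those of CDK2. A second branch of the CDK family acts mainly on RNA polymerase II and its cofactors, though its member CDK7 is also part of the CDK-activating kinase.

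The arrays had been scaled to the same trimmed mean, but the PML4 array had the lower median signal over human probe sets, 64.0 against 80.6 with control vector, and 48.1% against 51.9% of them above the floor. The GAPDH 3' to 5' ratio was 1.55 with control vector and 1.53 with PML4, and that of beta-actin was higher, 2.94 and 2.8. Of 12 erythroid markers 10 could be read and all 10 were measured, against 2 of 10 lymphoid, 3 of 8 monocyte and granulocyte, and 2 of 8 fibroblast markers. PML itself was read in both directions, from 216.3 to 1386.8 in probe set 211013_x_at and from 927.2 to 156.5 in 206503_x_at, so its probe sets check the label only in part.

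CDKN1C was the 1 member that differed by at least 2-fold, and it was lower on the PML4 array. That is 1.96% of the 51 measured members, against 4.43% of all measured genes called at this size. No member was called higher, against 1.23% of all genes, and the lower call stands against 3.21%. The median difference over the members, log2 PML4 minus log2 control vector, was 0.05, with 27 higher and 24 lower. Over all genes that median was -0.05, with 5605 higher and 6936 lower. In size, 37 members (72.5%) differed by less than 0.3 on the log2 scale, compared with 55.9% of all genes. Large differences were more frequent among dim genes, and members were mostly bright: 25 of 51 were among the 3135 brightest genes, of which 1.21% were called, and 3 among the 3136 dimmest, of which 9.5% were called. Among genes at or above the median signal 1.48% were called, and none of the 41 members there was. In that brighter set 78.0% of members and 65.7% of genes differed by less than 0.3. In RNA from whole cultures, fewer cells with a transcript and less of it per cell cannot be told apart.

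**Figure D1:**
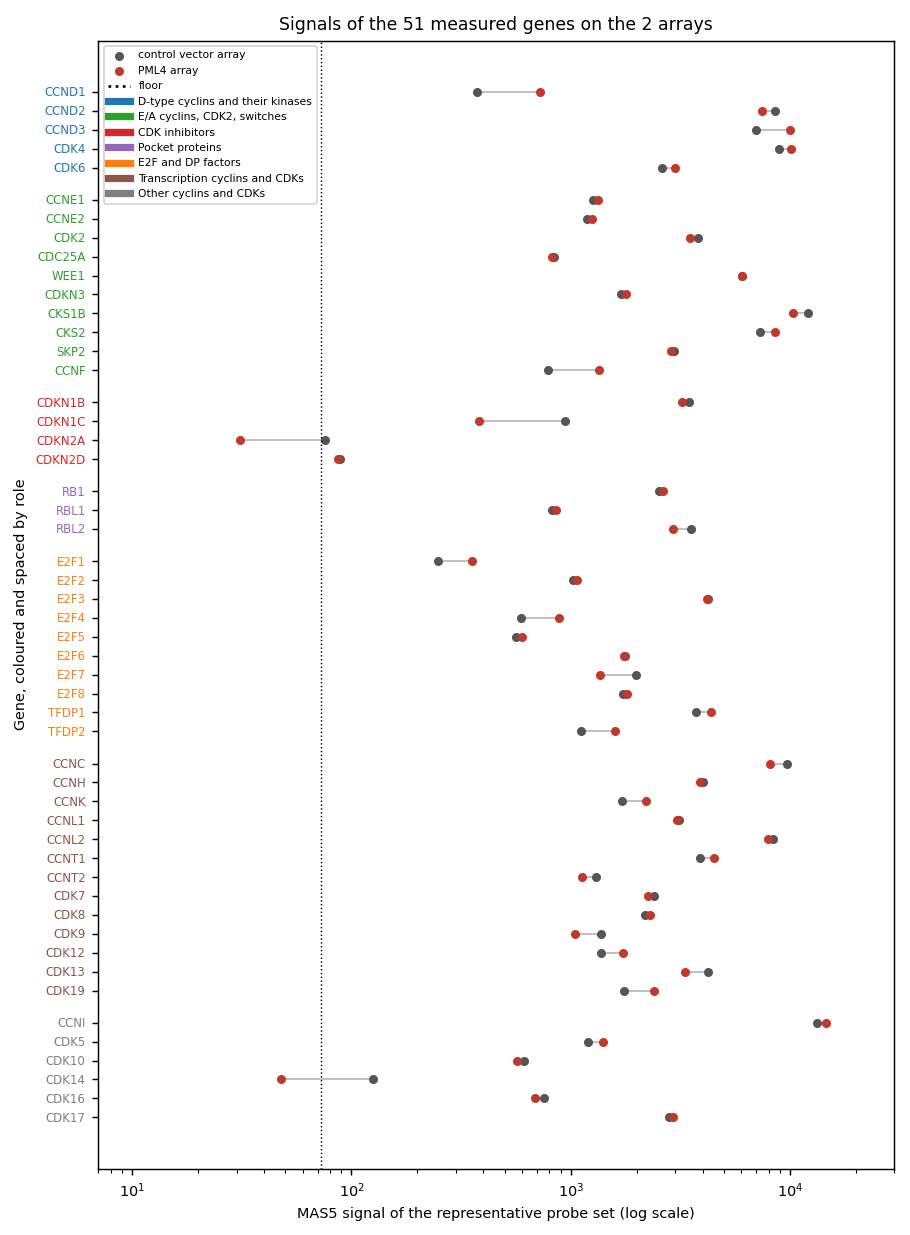
MAS5 signals (log axis) of the 51 measured genes, 1 row a gene, from the probe set that stands for it, with the control vector array in grey and the PML4 array in red; the dotted line is the floor of 72.4. Most pairs of points nearly touch, and the widest gaps with both points above the floor are those of CDKN1C, CCND1 and CCNF.

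**Figure D2:**
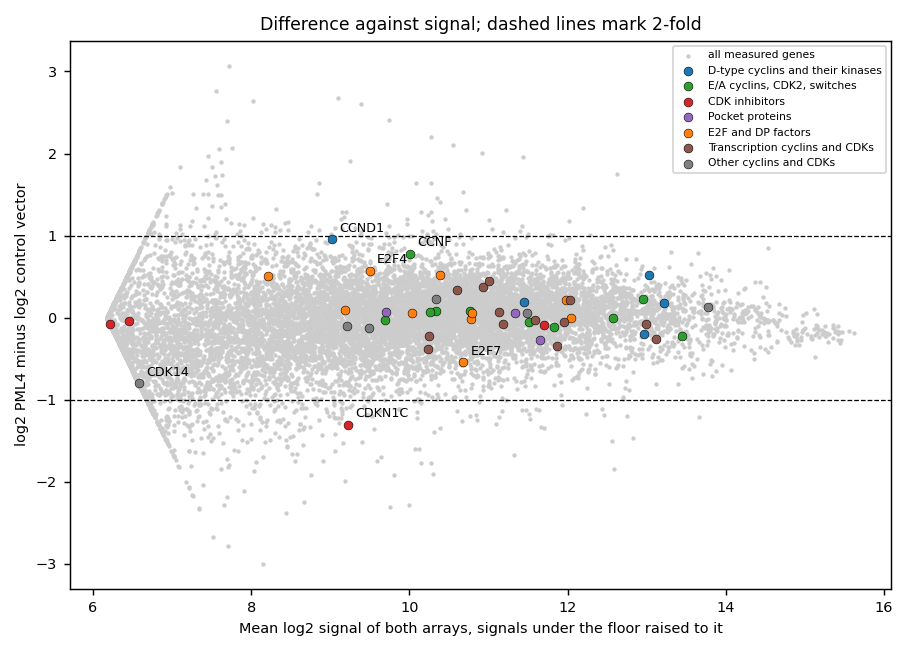
Difference (log2 PML4 minus log2 control vector) against mean log2 signal for all 12541 measured genes in grey and the 51 members in colour by role. CDKN1C at -1.30 lies beyond the dashed 2-fold line, CCND1 at 0.96 lies just inside it, and the cloud is widest at low signal.

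The only error these arrays offer for a gene is the disagreement between its own probe sets. Over all genes, 19460 pairs of measured probe sets in 6143 genes differed by a median of 0.30 on the log2 scale. For members the 111 pairs in 35 genes differed by a median of 0.32. All measured probe sets of a gene pointed one way in 14 of these 35 members (40.0%) and in 51.5% of all such genes. Probe sets above the floor on 1 array only are counted there, though their direction was fixed. Both of CDK14, 200952_s_at of CCND2, and 235287_at and 207143_at of CDK6 are of this kind. This disagreement leaves out the error between arrays and between cultures.

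Among the CDK inhibitors, every measured probe set was lower on the PML4 array as deposited, but only those of CDKN1C by much. CDKN1C, a KIP-type inhibitor expressed from the maternal allele in normal tissues, had 4 measured probe sets. Probe set 213348_at, which stands for the gene, read 939.1 with control vector and 380.6 with PML4, a 2.47-fold lower signal. The second, 219534_x_at, read 482.0 and 262.3, which is 1.84-fold lower. Signals of 313.2 and 234.3 in 213182_x_at were 1.34-fold apart, and those of 276.7 and 191.9 in 216894_x_at were 1.44-fold apart. All 4 were lower with PML4, yet only 1 by 2-fold, and averaged they differed by -0.78 on the log2 scale, short of 2-fold. An x in the suffix marks probes that also match other transcripts, and 213348_at has none. The remaining probe set, 219533_at, lay below the floor at 4.2 and 3.8.

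CDKN1B, the other KIP inhibitor among the members, was read by 1 probe set, at 3451.6 with control vector and 3238.1 with PML4, 1.07-fold apart. The INK4 genes were at or near the floor. CDKN2A, which encodes an INK4 protein and the p53 activator ARF, read 76.1 and 31.1 in 209644_x_at, 35.2 and 47.6 in 207039_at, and 1.8 and 6.5 in 211156_at. Its log2 difference of -0.07 is a bound with the PML4 side at the floor. CDKN2B read 4.6 and 5.8 in one probe set and 1.0 and 8.4 in the other. CDKN2D, an INK4 inhibitor of CDK4 and CDK6, read 88.7 and 86.4 in 210240_s_at, just above the floor, and 17.7 and 15.0 in 213586_at. K562 is known for a deletion that takes CDKN2A and CDKN2B, and no probe set of either was above the floor except 209644_x_at on the control array, by a small margin. In all, 13 probe sets read 5 inhibitors, and 7 were measured. All 7 were lower as deposited, against 55.1% of measured probe sets over all genes. Of the 7, 4 belong to CDKN1C, and 209644_x_at was above the floor only on the control array, so it could only read lower. With the floor at the 25th percentile 9 were measured and 8 were lower, the exception being 207039_at of CDKN2A. The direction of the smallest differences depended on scaling: 6 of 7 were lower after centring on the median gene, 6 of 7 after loess centring and 5 of 6 after quantile normalization.

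**Figure D3:**
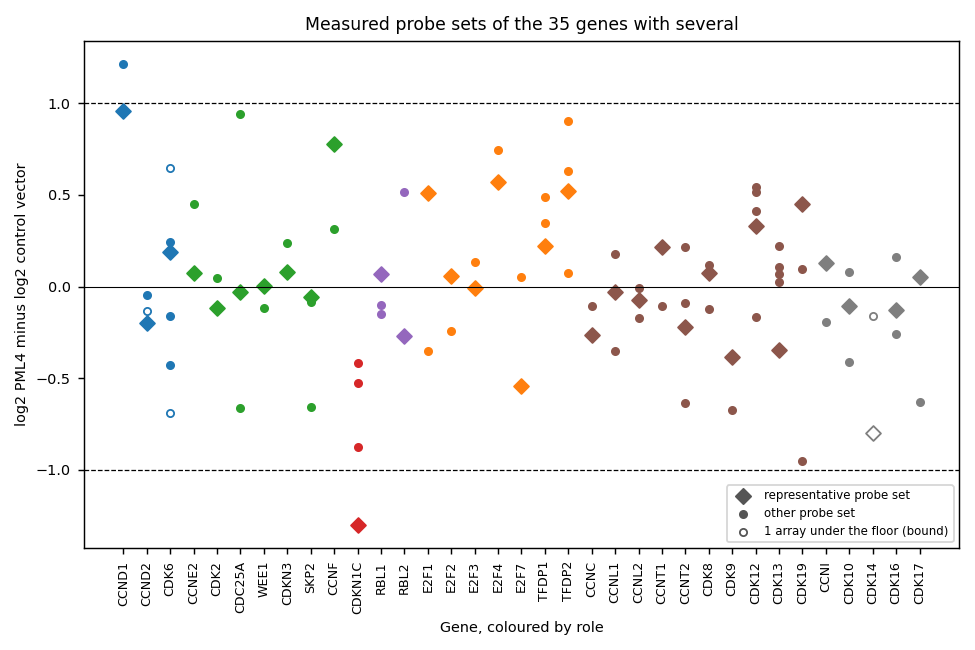
Differences (log2 PML4 minus log2 control vector) of all measured probe sets for the 35 members with more than 1, coloured by role; diamonds stand for the gene, open symbols are bounds with 1 array under the floor, and dashed lines mark 2-fold. The 4 CDKN1C probe sets lie from -1.30 to -0.42 and both CCND1 probe sets near 1, while those of CDC25A and CDK19 fall on both sides of 0.

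CCND1 had the largest difference upward and lay at the edge of a call. It encodes cyclin D1, which pairs with CDK4 and CDK6. Probe set 208712_at, which stands for it, read 372.7 with control vector and 724.1 with PML4, 1.94-fold higher and just under 2-fold. The other, 208711_s_at, read 168.2 and 390.7, which is 2.32-fold higher. Both agreed in direction, with a mean log2 difference of 1.09. CCND1 passed 2-fold on that mean, and also after centring on the median gene (1.01), quantile normalization (1.02) and loess centring (1.01), so each scaling change gave 1 higher and 1 lower member in place of 0 and 1. Raising the floor to the 75th percentile put it at 0.64, which is a bound, since the control signal lay below that floor and was raised to it.

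The other D-type cyclins differed less and not in one direction. CCND3, the cyclin D3 gene, was at 7008.7 and 10014.1, a 1.43-fold higher signal with PML4 in its 1 measured probe set. CCND2, the cyclin D2 gene, was at 8577.3 and 7464.9, 1.15-fold lower, and its 3 measured probe sets were all lower. Of these, 200951_s_at differed by only -0.04. Probe set 200952_s_at, at 79.4 and 52.5, was above the floor only on the control array, so it could only read lower. CDK4 was at 8909.3 and 10125.8, 1.14-fold higher. CDK6 was at 2623.6 and 2984.8, a difference of 0.19 on the log2 scale. Its 6 measured probe sets ran from -0.69 to 0.64, 3 of them higher, but both ends are bounds. The lowest, 235287_at at 116.9 and 50.2, passed the floor with control vector alone and could only read lower. The highest, 207143_at at 62.4 and 113.2, passed it with PML4 alone and could only read higher. Without these bounds the values ran from -0.43 in 243000_at to 0.24 in 224851_at, still in both directions. The 5 genes had a median difference of 0.19, with 4 of 5 higher as deposited and under each of the 3 scalings, and 3 of 5 on the mean over probe sets.

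Genes around CDK2 were nearly alike on the arrays in the probe sets that stand for them, apart from CCNF. CCNF encodes cyclin F, an F-box protein that directs a ubiquitin ligase to cell cycle proteins. It was at 784.2 and 1346.3, 1.72-fold higher with PML4, and its second probe set, at 148.2 and 183.9, was 1.24-fold higher. CCNE1 and CCNE2, the E-type cyclins, were at 1259.8 and 1333.4 and at 1190.5 and 1252.3. CDK2 was at 3802.7 and 3501.7. WEE1, the kinase that holds CDKs inactive, was at 6075.8 and 6080.8. In the probe sets that stand for them, the E-type cyclins, their kinase and its brake thus differed by at most 0.12 on the log2 scale, though the dimmer probe set of CCNE2, at 196.8 and 268.8, was 1.37-fold higher.

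CDC25A, the phosphatase that removes the mark set by WEE1, had probe sets that disagreed. They were at 836.9 and 821.1 in 204695_at, at 480.4 and 303.0 in 1555772_a_at, and at 95.1 and 182.5 in 204696_s_at, with log2 differences of -0.03, -0.66 and 0.94. CKS1B, a cofactor of SKP2 in the degradation of CDKN1B, was at 12086.2 and 10351.2, 1.17-fold lower, and its paralog CKS2 was at 7307.7 and 8573.6, 1.17-fold higher. SKP2, the F-box protein of that ligase, was at 2973.1 and 2858.1, with all 3 probe sets lower, by 1.04-fold, 1.06-fold and, in the dimmest at 162.6 and 103.2, 1.58-fold. CDKN3, a phosphatase that acts on CDK2, was at 1689.1 and 1783.9. CCNA1, the germ-line A-type cyclin, was at 32.8 and 36.5, below the floor. This group of 10 measured genes had a median of 0.04, and 9 of the 10 differed by less than 0.3.

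The pocket proteins differed little in the probe sets that stand for them. RB1 read 2530.3 with control vector and 2639.3 with PML4, 1.04-fold apart. RBL1, its relative p107, was at 818.1 and 857.5, and its other measured probe sets were slightly lower, at -0.15 and -0.10. RBL2, the relative p130 found mainly in resting cells, was at 3522.5 and 2924.0 in 212331_at and at 212.0 and 302.9 in 212332_at, so its probe sets disagreed, at -0.27 and 0.51.

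E2F factors and their DP partners included a few moderate differences upward, with E2F7 the largest downward. E2F4, which represses targets together with pocket proteins, was at 593.8 and 883.5 in 38707_r_at and at 219.6 and 367.7 in 202248_at, 1.49-fold and 1.67-fold higher. Its partner gene TFDP2 was at 1113.2 and 1599.1, 1.44-fold higher, and the 4 probe sets were all higher, from 0.07 to 0.90. TFDP1, the other DP partner, was at 3737.2 and 4349.8, 1.16-fold higher, with its 3 probe sets at 0.22, 0.35 and 0.49. These 3 genes were set together after their values were seen. Their 9 measured probe sets were all higher with PML4, a count that the choice itself shaped and that cannot serve as support. None of these genes was called. In the rest of the group, left over by the same choice, 6 of 11 measured probe sets were higher, and over all genes 10600 of 23607 (44.9%).

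The activator E2F1 was at 248.1 and 353.7 in 204947_at, but its other probe set was at 230.3 and 180.4, in the opposite direction. E2F2 was at 1024.4 and 1066.5 and E2F3 at 4228.6 and 4200.2, both within 1.05-fold in the probe sets that stand for them. E2F7, an atypical repressor, was at 1982.7 and 1361.6, 1.46-fold lower, while its dim second probe set was at 107.2 and 111.1. E2F8, the other atypical repressor, was at 1732.9 and 1804.9. E2F5 and E2F6, both repressors, were at 561.3 and 601.5 and at 1771.3 and 1754.0. The group of 10 had a median of 0.08, and 7 of 10 were higher as deposited, 9 of 10 after centring on the median gene.

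E2F factors are known to control several of their own genes, so the promoters of members were searched for 3 exact forms of the E2F consensus, TTTCGCGC, TTTGGCGC and TTTCCCGC, on both strands. The RefSeq promoter table (GRCh38.p14, 250 bases before to 50 after each annotated start) held 46 of the 54 genes and did not list CCND1, CCND2, CCNE2, CDK2, CDKN1C, E2F5, E2F8 and WEE1. One of the 3 forms occurred in 8 of the 46 genes (17.4%), and in 3.3% of the 27305 genes of the table. The 8 were E2F1, E2F2, E2F3, RBL1, TFDP1, CDC25A, CDK10 and CDK19. A match is a run of letters and not a measured site. For 6 of these 8 genes, those of the E2F loop, the 120 bases before the start are given, with the matched letters in capitals. CDK10 also has a match there and is not printed. E2F4, E2F6, E2F7, TFDP2, RB1 and RBL2 were searched too and held none of the 3 forms. E2F1 lies at chr20:33686386-33686505 (minus strand), E2F2 at chr1:23531234-23531353 (minus strand), E2F3 at chr6:20401759-20401878 (plus strand), RBL1 at chr20:37095998-37096117 (minus strand), TFDP1 at chr13:113584633-113584752 (plus strand) and CDC25A at chr3:48188418-48188537 (minus strand).
E2F1: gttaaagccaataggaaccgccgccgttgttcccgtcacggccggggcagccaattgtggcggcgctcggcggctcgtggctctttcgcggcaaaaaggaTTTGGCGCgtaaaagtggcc
E2F2: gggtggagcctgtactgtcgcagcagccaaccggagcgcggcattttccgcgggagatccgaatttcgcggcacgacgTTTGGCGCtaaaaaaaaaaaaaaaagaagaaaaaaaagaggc
E2F3: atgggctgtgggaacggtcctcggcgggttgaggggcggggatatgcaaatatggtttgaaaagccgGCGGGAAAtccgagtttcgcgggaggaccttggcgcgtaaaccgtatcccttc
RBL1: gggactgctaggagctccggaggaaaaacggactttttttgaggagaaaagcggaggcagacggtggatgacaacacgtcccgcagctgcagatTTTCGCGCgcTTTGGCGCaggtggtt
TFDP1: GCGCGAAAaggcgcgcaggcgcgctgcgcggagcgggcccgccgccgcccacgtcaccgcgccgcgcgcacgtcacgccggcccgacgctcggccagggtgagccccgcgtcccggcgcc
CDC25A: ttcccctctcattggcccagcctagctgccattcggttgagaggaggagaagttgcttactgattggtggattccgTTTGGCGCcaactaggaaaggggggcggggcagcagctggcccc
RBL1 carries a pair of forms, the first beginning 26 and the second 16 bases before the start, and in E2F1 the match begins 20 bases before it. These genes did not share a direction on the arrays: the probe sets that stand for them differed by 0.51 for E2F1, 0.06 for E2F2, -0.01 for E2F3, 0.07 for RBL1, 0.22 for TFDP1 and -0.03 for CDC25A. The shorter CHR element TTTGAA, known from promoters of mitotic genes, occurred in 10 of the 46 genes (21.7%) and in 18.2% of all genes.

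Cyclins and CDKs of transcription had a median of -0.05 over 13 genes, 5 higher and 8 lower, the same split under quantile normalization and loess centring and 6 to 7 after centring on the median gene. Without _x_at and _s_at probe sets 7 of 12 were higher and the median was 0.07. CDK9, the kinase of P-TEFb that releases paused RNA polymerase II, was at 1372.5 and 1050.4, 1.31-fold lower, and at 131.3 and 82.3 in its second probe set, 1.60-fold lower. Its cyclin genes CCNT1 and CCNT2 were at 3878.3 and 4511.4 and at 1308.7 and 1124.6. CCNK, the cyclin of CDK12 and CDK13, was at 1709.2 and 2212.7, 1.29-fold higher. CDK12, an elongation kinase that supports DNA repair genes, was at 1379.0 and 1736.2, and 5 of its 6 measured probe sets were higher, between 0.32 and 0.54, with the sixth at -0.17. CDK13 was at 4213.7 and 3316.6 in 232266_x_at, which stands for it, whereas its other 4 measured probe sets were higher by 0.03 to 0.22. The mean over its probe sets was 0.02.

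CDK19, a kinase of the Mediator complex, had probe sets 1.40 apart on the log2 scale, the second widest span among members after the 1.61 of CDC25A. It was at 1754.0 and 2400.9 in 212899_at, at 1919.0 and 992.5 in 235226_at, and at 1014.9 and 1085.0 in 212897_at. That is 1.37-fold higher, 1.93-fold lower and 1.07-fold higher, so the gene has no settled direction here. CDK8, its paralog, was at 2179.2 and 2294.3, and CCNC, the cyclin of both, at 9740.2 and 8107.2, 1.20-fold lower in the brighter of its probe sets. CCNH and CDK7, which form the CDK-activating kinase of TFIIH, were at 4036.6 and 3897.8 and at 2391.5 and 2263.6. CCNL1 and CCNL2, cyclins linked to splicing, were at 3107.9 and 3047.3 and at 8363.3 and 7953.9.

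Of the remaining cyclins and CDKs, CDK14 differed most and lay near the floor. CDK14, a kinase that acts with cyclin Y at the cell membrane, was at 125.9 and 47.6, at least 1.74-fold lower, and its second measured probe set was at 80.8 and 66.1. Both probe sets were above the floor only on the control array, so they could only read lower. CDK5, best known from neurons, was at 1201.5 and 1402.3. CCNI was at 13362.1 and 14606.2 in 208656_s_at and at 11159.0 and 9741.3 in 208655_at, opposite in direction and small. CDK17 was at 2818.1 and 2920.1, with a dimmer probe set at 176.1 and 113.9. CDK10 and CDK16 were at 613.7 and 570.1 and at 753.5 and 690.0, each with probe sets on both sides of 0.

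At 1.5-fold, 4 of 51 members passed, CCND1 and CCNF higher and CDKN1C and CDK14 lower, which is 7.84% against 17.6% of all genes. CDK14 was above the floor only on the control array, so it could only read lower. By direction the background was 5.7% higher and 11.9% lower. At 3-fold 0 members passed, against 0.686% of all genes, 0.215% higher and 0.47% lower.

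Other genes of the pathway, from 4 lists chosen for function, held no gene that differed by 2-fold in the probe set that stands for it, 0 of 76 measured. Some dimmer probe sets did. That of GINS2, 1557595_at, was 2.77-fold lower, at 215.0 and 77.7, while its other probe sets were at 0.04 and 0.03. That of CCNG2, 228081_at, was 2.36-fold lower, at 182.1 and 77.1, with its other measured probe sets at -0.07, -0.46 and -0.27. One of CCNY is given below. Over all measured genes 4.43% were called, and among those at or above the median signal, where 64 of the 76 lay, 1.48%. E2F target genes of replication and nucleotide supply were close to equal in the probe sets that stand for them. The 25 measured genes had a median difference of -0.0013 on the log2 scale, 12 were higher and 13 lower, and they ran from -0.38 to 0.22. TYMS, thymidylate synthase, was at 18813.2 and 19436.1, PCNA, the sliding clamp, at 14876.6 and 15356.2, and MCM3, a helicase subunit, at 11486.6 and 10439.1. Of these 25 genes, 92.0% differed by less than 0.3, compared with 55.9% of all genes and 65.7% of those at or above the median signal. Mitotic cyclins, CDK1 and MuvB partners had a median of 0.17, with 8 of 14 higher. CDK1 was at 13196.7 and 14427.9, RBBP4, a chromatin subunit of MuvB, at 10867.5 and 10177.1, and CCNB2, a B-type cyclin, at 6372.9 and 8064.0.

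Ubiquitin ligase genes had a median of 0.06, with 11 of 16 higher as deposited, 10 of 16 after quantile normalization or loess centring, and 6 of 13, with a median of -0.08, without _x_at and _s_at probe sets. SKP1, a core subunit, was at 19765.4 and 21846.7, RBX1, the RING subunit, at 5800.6 and 6503.7, and DDB1, an adaptor, at 5107.8 and 5465.2. Partners of the transcription and other CDKs had a median of -0.07, with 8 of 21 higher. CCNG1, cyclin G1, was at 15284.0 and 14840.7, MED13, which ties the kinase module to Mediator, at 6714.1 and 6193.0, and AFF1, an elongation factor, at 4671.3 and 5872.8. At 1.5-fold 4 of the 76 genes passed (5.26%, against 17.6% of all genes). UBE2C, the ubiquitin-conjugating enzyme of the anaphase-promoting complex, was at 288.9 and 164.5, 1.76-fold lower, and CDC20, an activator of that complex, was at 1589.5 and 2685.5, 1.69-fold higher. HEXIM1, an inhibitor of P-TEFb, was at 650.2 and 1061.1, 1.63-fold higher, while its other measured probe sets were at 0.08 and -0.32. The last of these, at 90.1 and 59.2, was above the floor only on the control array and could only read lower. CABLES2 was at 943.8 and 592.1, 1.59-fold lower.

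A smaller difference in each of 2 further genes was singled out after its values were seen, for the link to a member. CCNY, the cyclin of CDK14, was lower in 4 of 4 measured probe sets, at 5179.1 and 3452.8 in the one that stands for it and 2.06-fold lower in 224649_x_at, at 2032.2 and 986.8. CDKN1A, the KIP-type inhibitor induced by p53, was at 903.4 and 659.5, 1.37-fold lower in its 1 probe set.

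**Figure D4:**
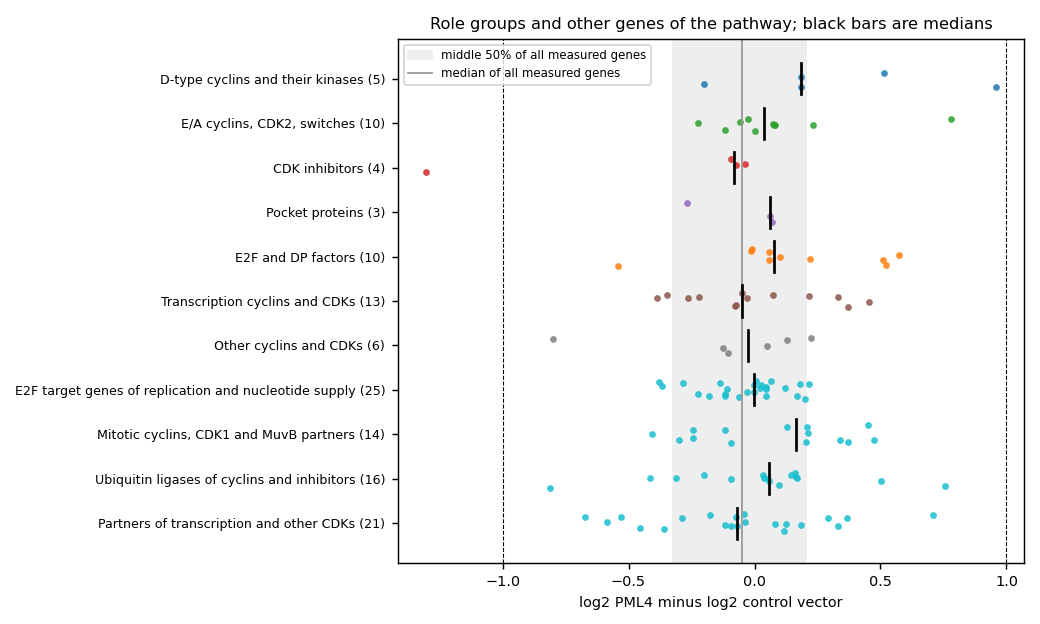
Differences (log2 PML4 minus log2 control vector) of the probe set that stands for each gene, by role group and, in cyan, for 4 further lists of the pathway; black bars are medians, the number measured is in brackets, the band holds the middle 50% of all measured genes and dashed lines mark 2-fold. CDKN1C is the only point past 2-fold, and the E2F target genes lie between -0.38 and 0.22.

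The chromosomal neighbours of 3 members were read as well, chosen after the values of these members were seen: the 4 nearest genes with a probe set on each side, in RefSeq order. CDKN1C lies in an imprinted cluster, and its neighbours SLC67A1 (formerly SLC22A18) and PHLDA2 are likewise known to be expressed from the maternal chromosome. SLC67A1, which encodes a transporter-like protein, read 746.9 with control vector and 372.9 with PML4, just past 2-fold lower in its 1 probe set. PHLDA2, which limits placental growth, was at 850.7 and 626.4, 1.36-fold lower in its 1 measured probe set. KCNQ1, a potassium channel gene also known to be maternally expressed, was at 99.0 and 8.6 in its 1 measured probe set, at least 1.37-fold lower with the PML4 side below the floor. The probe sets that stand for SLC67A1 and PHLDA2 thus read lower, as did 6936 of the 12541 genes measured in all. That of KCNQ1 was above the floor only on the control array, so it could only read lower. KCNQ1OT1, the noncoding RNA made from the paternal chromosome at this cluster, was at 402.6 and 359.1, 1.12-fold lower, with other probe sets at -0.39 and 0.03. NAP1L4, the next gene outward, was at 1382.9 and 1490.2, with its 3 measured probe sets between 0.03 and 0.11. SLC67A1 did not reach 2-fold after rescaling, at -0.94 to -0.95 after quantile normalization, loess centring or centring on the median gene.

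Beside CCND1, LTO1, a gene linked to ribosome maturation, was at 89.1 and 147.4 and at 78.0 and 139.3, 1.65-fold and 1.79-fold higher, near the floor. MYEOV, on the other side, was at 1024.7 and 1266.2, 1.24-fold higher, and TPCN2, an endolysosomal channel, had 5 probe sets from -0.58 to 0.32. The lowest of the 5, 231978_at at 108.3 and 56.7, was above the floor only on the control array. FGF4 was likewise above it only there, at 93.5 and 66.0 in 206783_at. Both could only read lower. Around CDKN2A, 12 of the 15 probe sets of the 8 neighbours, CDKN2B among them, lay below the floor in both cultures. MTAP, a methionine salvage enzyme often lost together with CDKN2A, was above the floor in 1 of its 6 probe sets and only on the control array, at 142.9 and 55.6.

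**Figure D5:**
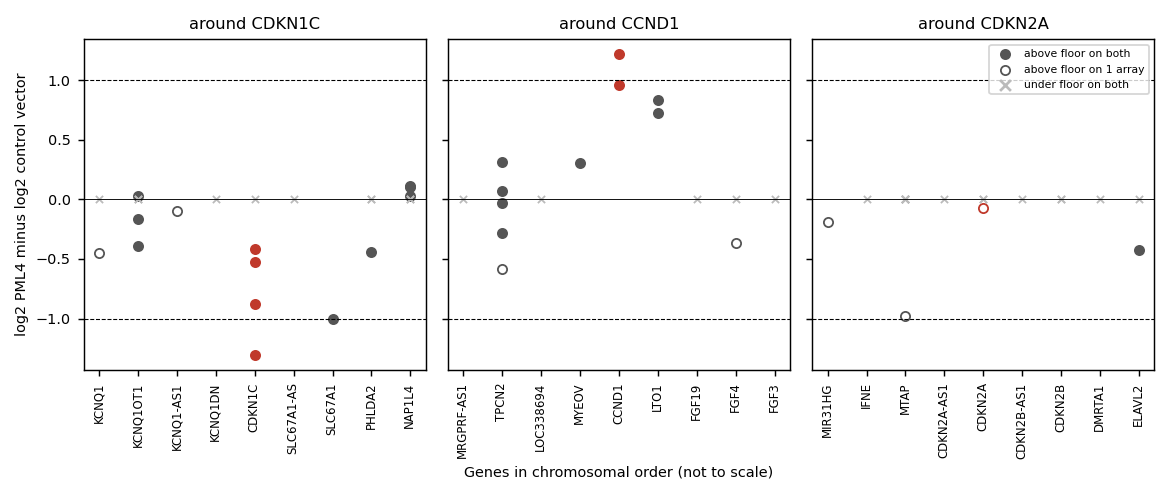
Differences (log2 PML4 minus log2 control vector) of every probe set for CDKN1C, CCND1 and CDKN2A (red) and the 4 nearest genes with a probe set on each side (grey), in chromosomal order and not to scale; crosses placed at 0 are probe sets below the floor in both cultures. The measured probe sets of CDKN1C, SLC67A1 and PHLDA2 lie below 0, NAP1L4 lies at 0.03 to 0.11, and crosses fill the CDKN2A panel. That of KCNQ1, above the floor only on the control array, could only lie below 0.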

How the data were processed

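Total RNA (6 µg, per the labels) of 1 control vector and 1 PML4 culture was labelled with biotin and hybridised to Affymetrix arrays. The authors deposited linear signal intensities made with MAS5, per the submitters' processing notes, which name no version. The authors' scaling left trimmed means of 500.0 and 500.1 without the 2% at each end, and nothing was rescaled for the values given first. Genes were named from GEO's platform annotation, updated through Entrez identifiers in RefSeq (41037 of 41091 probe sets with 1 gene matched); 1801 probe sets with several genes and 11721 with none were left unnamed. Any signal below the floor was set to the floor before log2. The measured probe set that was brightest on average (log2) stood for a gene, and 2-fold made a call. The members and lists were chosen with earlier results of these data known. Values are given in full for inhibitors, called members and, per role, the 3 largest differences and 2 highest signals, with other members added. Alternatives were 2 other floors, a pseudocount of 32, 3 scalings (loess span 0.4), the mean over probe sets, leaving out _x_at and _s_at probe sets, and calls at 1.5-fold and 3-fold. The calling steps were tested on simulated data, with changes larger than that of any member and only in genes above the median signal. Smaller or dimmer differences were not tested in this way. Python 3.11.15, pandas 2.3.3 and statsmodels 0.14.6 were used. The number of arrays limits the precision.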

Additional observations from a re-analysis of the deposited data

How the results depend on the processing

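With 1 array a group, no setting gives an error between cultures, and signals near the floor of 72.4 are the least certain. No paired analysis was possible because each group has 1 array and the result comes from no test. The members called numbered 1, with 0 higher and 1 lower. After centring on the median gene, quantile normalization and loess centring there were 2 (1 higher, 1 lower), CCND1 being added. On the mean over probe sets CCND1 was the 1 higher member and 0 were lower, because CDKN1C was at -0.78. A floor at the 25th percentile gave 3 calls, all 3 lower, CDKN2A at -1.29 and CDK14 at -1.40 being added. Calls at 1.5-fold gave 4 (2 higher, 2 lower, counting CDK14, which could only read lower) and calls at 3-fold 0. The median over the members ranged from -0.01 to 0.10. Lower inhibitor probe sets numbered 7 of 7 as deposited, counting 209644_x_at of CDKN2A, which could only read lower. They numbered 8 of 9 with a floor at the 25th percentile. A floor at the 75th percentile left 3 of 3, those of CDKN1C above it only on the control array. Without _x_at and _s_at probe sets 2 of 2 remained, since fewer were left. At 1.5-fold the ubiquitin ligase list held 2 calls and the list of partners of transcription and other CDKs 2, and a floor at the 25th percentile gave the latter 1, all against 0. Over all genes the calls were 154 higher and 402 lower as deposited, 667 and 2000 under the 25th percentile floor, 50 and 63 under the 75th, 184 and 341 after centring, 196 and 281 after quantile normalization, and 187 and 306 after loess centring. Differences of members and of 4 neighbours stayed within the median gap between probe sets, 0.30, in 407 of 421 recomputed values, moved by more in 14, and no called difference changed sign. CDKN1C stayed past 2-fold in 7 of 8 recomputations, all but the mean over probe sets. The causes of the shifts were not tested.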
